A study of Homo sapiens with 6 samples.

Results

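The FOS, JUN and small MAF genes encode transcription factors of the basic leucine zipper class, and 10 of them were examined among the 20388 gene symbols of the deposited table. They were taken by symbol: FOS, FOSB, FOSL1 and FOSL2 of the FOS family, JUN, JUNB and JUND of the JUN family, and MAFF, MAFG and MAFK of the small MAF family. All 10 were present in the table, and 9 reached the limit for testing, 1 FPKM on average across the 6 libraries, with FOSB below it. FPKM counts fragments per kilobase of a transcript relative to all fragments of the library. The unit rests on the file's own name for it, since the library sums (821498 to 836182) cannot tell FPKM from TPM, and the depth and fragment estimates below hold only for FPKM. The libraries came from MHCC-97H, an established hepatocellular carcinoma cell line labelled wild type in genotype. DMSO, the solvent control, and GK921 at 2 µM were each applied for 24 h and gave 3 libraries per group. GK921 is an inhibitor of transglutaminase 2, an enzyme that joins proteins to one another and can modify histone H3 with serotonin. The comparison asks how RNA levels differed between these groups. Whether replicate libraries stem from independent cultures is not stated, so p-values reflect the spread among these libraries, part of which may be technical.

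The sources used here give no read totals. The worth of 1 fragment on a 1 kb transcript was estimated from the smallest values of short single-exon genes, 35 to 45 per library. It came to 0.0828 to 0.096 FPKM in the DMSO libraries and 0.102 to 0.109 FPKM in the GK921 libraries. By this estimate the GK921 libraries were somewhat shallower. Libraries of the same group correlated at r = 0.993 to 0.995 across tested genes, and libraries of different groups at 0.914. Of 13 liver and liver cancer markers, 5 reached the limit for testing, HNF4A, KRT8, KRT18 and KRT19 among them. ALB, AFP, APOA1, APOB, SERPINA1, TTR and EPCAM averaged below 1 FPKM in both groups, and GPC3 was listed at 0 in all libraries, so the defining secreted products of hepatocytes were absent or near absent. The summed level of the 13 markers was 2658 to 2667 FPKM in DMSO and 2044 to 2115 FPKM after GK921. Among those named, KRT8 and KRT19 were called lower and HNF4A was not called. KRT18 was called higher, from 740 to 787 FPKM on average (limma adjusted p = 0.0157). No marker was called higher with median-ratio or upper-quartile scaling. The part of these changes in the results below was not tested. Of 11 markers of fibroblasts, endothelium and leukocytes, 2 (CD68 and PECAM1) reached the limit and neither was called, though 1 of them was called lower with the replicate block, median-ratio scaling or upper-quartile scaling. PDGFRB, a fibroblast and pericyte marker below the limit, was at 0.02, 0.03 and 0 FPKM in DMSO and 0.32, 0.35 and 0.31 FPKM after GK921. The 11 summed to 108 to 116 FPKM in DMSO and 98.4 to 114 FPKM after GK921. CD68 alone averaged 109 FPKM in DMSO and 99.7 FPKM after GK921, so the sum is nearly all CD68. PDGFRA and CDH5 were listed at 0 throughout.

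AP-1 is the name for dimers that FOS and JUN proteins form through their leucine zippers. FOS proteins need a JUN partner, whereas JUN proteins can also pair with each other, and the dimers bind the sequence TGANTCA or the closely related cyclic AMP response element TGACGTCA. FOS, FOSB, JUN and JUNB are classic immediate early genes, induced within minutes of growth factors or stress and then shut off, while JUND is made more steadily. FOSL1, also known as FRA1, is often high in invasive tumour cells. The small MAF proteins have no activation domain of their own. They repress transcription as dimers with each other, and regulate antioxidant genes as partners of the NRF and BACH proteins.

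After GK921, all 3 JUN genes and 2 of the 3 small MAF genes rose, while FOSL1 and FOS fell. The rises ran from 1.60-fold for JUNB to 4.76-fold for MAFF, and FOSL1, the most abundant member in DMSO, fell 1.17-fold. In numbers, 5 of the 9 tested members were higher and 2 were lower at a limma adjusted p under 0.05, adjusted over all tested genes. Of the 11573 genes tested, 46.8% were called higher and 29.2% lower by the same rule, and 75.9% in either direction, so the counts of members (7 of 9 in either direction) were close to the background. The GK921 and DMSO values were separate for 7 of the 10 members, 5 with GK921 above and 2 with GK921 below, while 48% and 30% of all tested genes were separate in these directions (78% in either). The median log2 change was 0.67 for the 9 tested members and 0.16 for all tested genes. MAFF, MAFK and JUND changed by more than 1 on the log2(FPKM + 1) scale, as did 9.87% of all tested genes in the upward direction. In bulk RNA, a change in the number of cells that express a gene and a change in RNA per cell cannot be told apart.

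**Figure D1:**
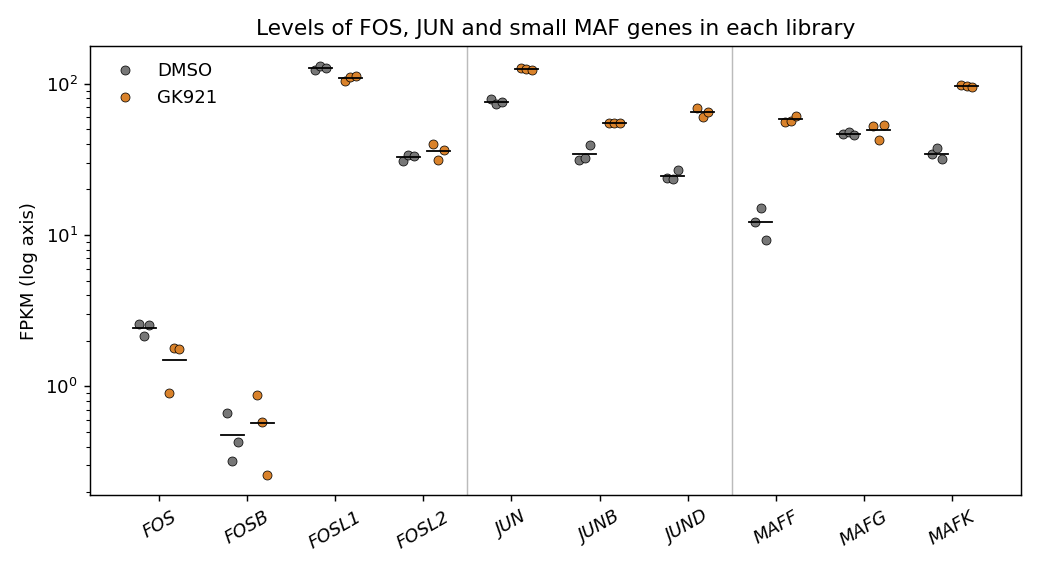
FPKM of each gene on a log axis, with 1 point per library, DMSO in grey and GK921 in orange, and a bar at the mean of 3 libraries. The 3 JUN genes, MAFF and MAFK have all GK921 points above all DMSO points, FOS and FOSL1 have them below, and FOSB, FOSL2 and MAFG overlap.

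The JUN genes each have a single exon, which only 2.06% of tested genes have in GENCODE 29. The promoters of the members were read from RefSeq (GRCh38.p14), which matched 8 of the 10 genes, FOSL1 and MAFK being the others. The 250 bases before the start were searched on both strands for TGANTCA, TGACGTCA and the CArG box, the site of serum response factor. TGACGTCA was found at JUND and at the upstream start of MAFF, and in 1.65% of the 35116 promoters of the table. TGANTCA (6.57% of promoters) and the CArG box (1.16%) were found at none of the members in this window. Sites farther from the start were not searched for and may exist. 2 variants, TGACATCA at JUN (2.37% of promoters) and TGACGTTT at FOS (0.419%), were added to the search after the sequences had been read. Each is a known element of its promoter related to TGACGTCA, and not necessarily the only one. Other near forms were not searched for. Examples in the windows are TGACGTAA at FOSB, TGACGTGA at FOSL2, TTACCTCA at JUN and CGACGTCA at JUND. The 4 windows with a match to a searched sequence are shown, 2 of them (JUN and FOS) through the variants added later. They belong to 3 members that rose and 1 that fell, a split that rests on which variants were searched. The matched letters are in capitals, on the strand of the gene and 5′ to 3′. A match describes these letters only. The windows are chr19:18281623-18281872 (minus strand) for JUND, chr22:38201744-38201993 (plus strand) for MAFF, chr1:58784048-58784297 (minus strand) for JUN and chr14:75278578-75278827 (plus strand) for FOS.
JUND: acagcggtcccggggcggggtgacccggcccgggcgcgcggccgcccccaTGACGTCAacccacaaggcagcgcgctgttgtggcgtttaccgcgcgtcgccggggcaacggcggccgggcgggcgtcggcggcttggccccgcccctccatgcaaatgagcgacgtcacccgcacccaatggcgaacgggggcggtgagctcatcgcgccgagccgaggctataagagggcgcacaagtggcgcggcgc
MAFF: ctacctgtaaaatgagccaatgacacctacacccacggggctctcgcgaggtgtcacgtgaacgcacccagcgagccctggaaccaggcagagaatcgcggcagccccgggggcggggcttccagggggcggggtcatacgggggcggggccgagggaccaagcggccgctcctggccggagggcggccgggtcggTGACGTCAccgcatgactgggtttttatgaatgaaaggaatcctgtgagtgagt
JUN: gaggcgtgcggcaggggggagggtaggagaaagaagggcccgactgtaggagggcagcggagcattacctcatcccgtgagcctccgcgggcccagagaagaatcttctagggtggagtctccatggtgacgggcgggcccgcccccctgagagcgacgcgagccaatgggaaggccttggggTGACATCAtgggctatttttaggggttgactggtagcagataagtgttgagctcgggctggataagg
FOS: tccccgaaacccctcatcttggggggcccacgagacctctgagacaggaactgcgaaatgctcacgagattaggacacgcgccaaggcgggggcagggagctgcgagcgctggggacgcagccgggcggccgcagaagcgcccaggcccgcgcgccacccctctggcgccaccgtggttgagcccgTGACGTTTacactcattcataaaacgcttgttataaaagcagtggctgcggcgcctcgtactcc
Counted from the start, with -1 the base just before it, the first matched base lay at -200 in JUND, -54 in MAFF, -67 in JUN and -64 in FOS.

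JUN (chromosome 1, 58780788 to 58784327, minus strand, GRCh38), which encodes c-Jun, the main substrate of the JNK kinases and the strongest activator of its family, was at 79.28, 73.15 and 75.86 FPKM in DMSO and 127.97, 124.5 and 123.6 FPKM after GK921. Every GK921 library was above every DMSO library. The mean went from 76.1 ± 3.07 to 125.4 ± 2.31 FPKM (SD, n = 3 libraries per group, as for each mean below), a 1.65-fold rise. On the log2 scale it rose by 0.71 ± 0.040 (SE, limma adjusted p = 3.71e-07), a change above that of 81.4% of tested genes. JUN was second to FOSL1 in DMSO and the most abundant of the 10 genes after GK921, when FOSL1 was lower.

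JUNB (chromosome 19, 12791496 to 12793315, plus strand) encodes a JUN protein that can restrain c-Jun and cell cycle genes. Its values were 31.38, 32.23 and 39.16 FPKM in DMSO and 54.7, 55.07 and 54.78 FPKM after GK921. The third DMSO library was the highest of its group and still below the GK921 libraries, which lay within 1 FPKM of each other. The rise was 1.60-fold, with a log2 change of 0.67 ± 0.077 and a limma adjusted p of 4.61e-05. The log2 change was above that of 79.6% of tested genes. HOOK2, a gene on the other strand that overlaps JUNB, was at 3.21 ± 0.440 and 3.01 ± 0.693 FPKM (limma adjusted p = 0.657).

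JUND (chromosome 19, 18279760 to 18281622, minus strand), whose protein is held in check by menin and is linked to slow growth and oxidative stress defence, showed the largest change of the JUN family. It was at 23.81, 23.48 and 26.79 FPKM in DMSO and at 69.63, 59.98 and 65.07 FPKM after GK921. The groups were far apart, and the lowest GK921 value (59.98) was well above the highest DMSO value (26.79). The mean rose 2.63-fold from 24.7 ± 1.82 to 64.9 ± 4.83 FPKM (log2 change 1.36 ± 0.070, limma adjusted p = 2.25e-07), a change above that of 95.2% of tested genes. JUND was the least abundant JUN gene in DMSO and the second after GK921, ahead of JUNB. Its share of the summed JUN family FPKM was 17.7 to 18.9% in the DMSO libraries and 25 to 27.6% in the GK921 libraries. The share of JUN was 53.5 to 59% and 50.7 to 52%, and that of JUNB 23.3 to 27.6% and 21.7 to 23%. The summed level itself was 128.9 to 141.8 FPKM in DMSO and 239.6 to 252.3 FPKM after GK921.

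The FOS family moved the other way or did not pass the test. FOSL1 (chromosome 11, 65892049 to 65900573, minus strand) was at 123.57, 130.31 and 127.84 FPKM in DMSO and 103.74, 110.37 and 111.76 FPKM after GK921. All GK921 libraries were below all DMSO libraries, by a small margin relative to the level. The mean fell from 127.2 ± 3.41 to 108.6 ± 4.29 FPKM (log2 change -0.23 ± 0.040, limma adjusted p = 0.000725). The change lay 0.38 below that of the median tested gene. The fall was not called against a minimum change of 1.2-fold (treat, adjusted p = 1). FOSL1 made up 78 to 78.3% of the summed FOS family FPKM in DMSO and 71.4 to 76.6% after GK921.

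FOSL2 (chromosome 2, 28392448 to 28417312, plus strand), also known as FRA2, a FOS protein of bone, skin and metabolic control, was the second FOS gene by level in both groups. Its values were 30.94, 33.66 and 33.1 FPKM in DMSO and 39.82, 31.25 and 36.24 FPKM after GK921. The second GK921 library lay within the DMSO range and the others above it. The log2 change was 0.13 ± 0.083 (limma adjusted p = 0.198). Without the second GK921 library it was 0.22 and called higher (limma adjusted p = 0.0166), and with median-ratio scaling of the libraries it was -0.036.

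FOS (chromosome 14, 75278774 to 75282230, plus strand), the founding immediate early gene of the family, was near the limit for testing. It was at 2.6, 2.15 and 2.54 FPKM in DMSO and 0.91, 1.8 and 1.76 FPKM after GK921. By the depth estimate and the length of the main transcript these values stand for about 52.8 to 67.8 fragments in a DMSO library and 19.3 to 36.6 in a GK921 library. By the length of all annotated exons they stand for 79.2 to 102 and 28.9 to 54.9, and the length behind the deposited values is not known. The GK921 values were all below the DMSO values, and the first GK921 library was the lowest. The mean fell 1.63-fold (log2 change -0.48 ± 0.17, limma adjusted p = 0.0301). The call was lost without the first DMSO library (limma adjusted p = 0.0828), the third DMSO library (0.0779) or the first GK921 library (0.0805, with a log2 change of -0.30), and against a 1.2-fold change (treat, 0.209). FOSB (chromosome 19, 45467995 to 45475179, plus strand), a close relative of FOS known for stable forms in neurons, was at 0.67, 0.32 and 0.43 FPKM in DMSO and 0.87, 0.58 and 0.26 FPKM after GK921. The groups overlapped, and no test was made at this level. ERCC1, a DNA repair gene that overlaps FOSB on the other strand, was at 41.5 ± 1.31 and 61.7 ± 4.48 FPKM. FOS made up at most 1.65% and FOSB at most 0.599% of the family's summed FPKM in any library.

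**Figure D2:**
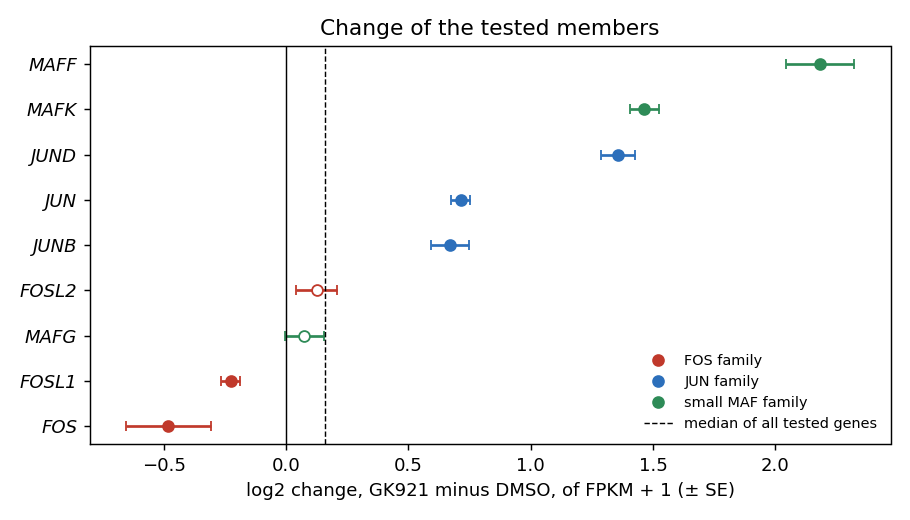
Log2 change of log2(FPKM + 1), GK921 minus DMSO, with its standard error for the 9 tested genes, coloured by family. Filled points passed the limma test at an adjusted p under 0.05, and the dashed line is the median of all tested genes (0.16). The 3 JUN genes, MAFK and MAFF lie to the right of that line, and FOS and FOSL1 to the left of 0.

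Among the small MAF genes, MAFF and MAFK rose and MAFG did not pass the test. MAFF (chromosome 22, 38200767 to 38216511, plus strand), the stress- and cytokine-inducible member of the family, was at 12.25, 15.11 and 9.3 FPKM in DMSO and 55.85, 57 and 61.6 FPKM after GK921. The GK921 values were all far above the DMSO values, while the DMSO values varied with a coefficient of variation of 23.8%. The mean rose 4.76-fold from 12.2 ± 2.91 to 58.2 ± 3.04 FPKM (log2 change 2.18 ± 0.14, limma adjusted p = 8.60e-07). This was the largest change of the 10 genes and above that of 98.9% of tested genes. PLA2G6, a phospholipase gene that overlaps MAFF on the other strand, was at a lower level but also rose, from 1.47 ± 0.261 to 5.14 ± 0.0808 FPKM (limma adjusted p = 8.08e-06). No source says whether the libraries kept the strand, so reads from the overlap cannot be assigned with certainty.

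MAFK (chromosome 7, 1530714 to 1543043, plus strand) encodes the small MAF protein that is a classic partner of NF-E2 and NRF2. It was at 34.09, 37.47 and 31.73 FPKM in DMSO and 97.45, 96.85 and 95.6 FPKM after GK921. The GK921 libraries agreed closely, with a coefficient of variation of 0.977%, and were all above the DMSO libraries. The mean rose 2.81-fold (log2 change 1.47 ± 0.059, limma adjusted p = 4.35e-08), a change above that of 96.2% of tested genes. TMEM184A, which overlaps MAFK on the other strand, fell from 22 ± 0.329 to 15 ± 1.72 FPKM (limma adjusted p = 0.000307). MAFG (chromosome 17, 81918270 to 81927714, minus strand), a widely expressed small MAF gene, was at 46.57, 48.01 and 45.74 FPKM in DMSO and 52.39, 42.74 and 53.42 FPKM after GK921. The second GK921 library was below the DMSO range and the other two above it. The log2 change was 0.074 ± 0.080 (limma adjusted p = 0.419). Its sign depended on scaling, with -0.089 after median-ratio scaling and -0.018 after upper-quartile or quantile scaling, and without the second GK921 library it was 0.17 and called higher (limma adjusted p = 0.0102).

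The make-up of the small MAF family differed between the groups. MAFG gave 47.7 to 52.7% of the summed small MAF FPKM in the DMSO libraries and 21.7 to 25.5% in the GK921 libraries. MAFK went from 36.6 to 37.3% in DMSO to 45.4 to 49.3% after GK921, and MAFF from 10.7 to 15% to 27.2 to 29.2%. The summed level was 86.8 to 100.6 FPKM in DMSO and 196.6 to 210.6 FPKM after GK921. For the FOS family the summed level was 157.8 to 166.4 FPKM in DMSO and 144 to 150 FPKM after GK921. The summed FOS family was above the summed JUN family in each DMSO library and below it in each GK921 library. These sums and shares follow from the levels of the genes above and were not tested.

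**Figure D3:**
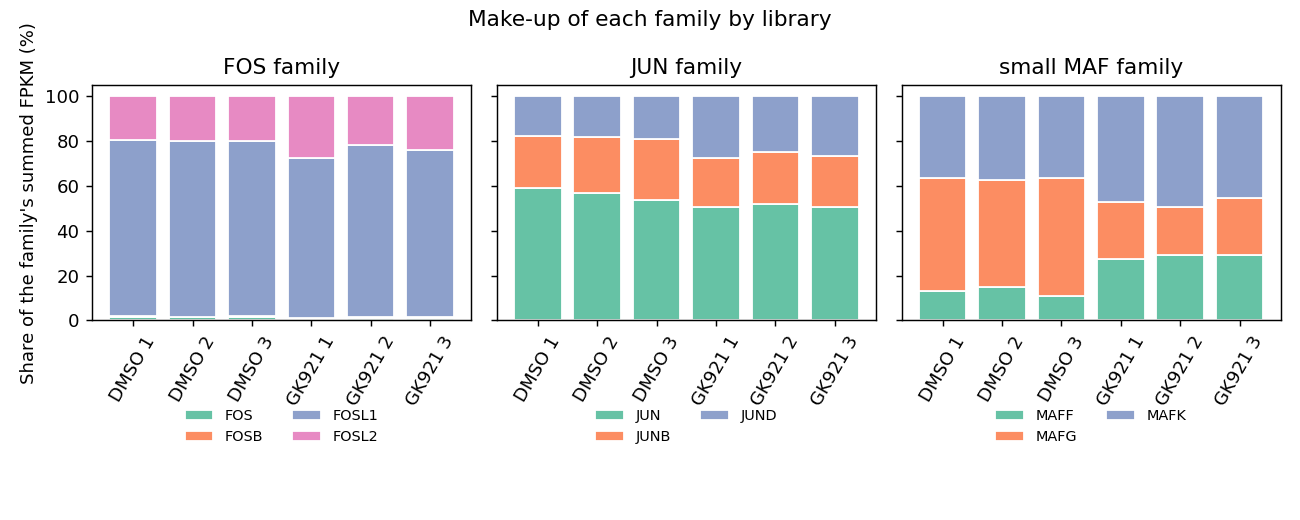
Share of each gene in the summed FPKM of its family, in percent, with 1 stacked bar per library. FOSL1 makes up most of the FOS family in all 6 libraries, JUND is a larger part of the JUN family after GK921, and MAFG gives way to MAFK and MAFF in the small MAF family.

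Ordered by FPKM, the genes in DMSO were FOSL1, JUN, MAFG, MAFK, JUNB, FOSL2, JUND, MAFF, FOS and FOSB. MAFK, JUNB and FOSL2 overlapped in their library values, with means of 34.4, 34.3 and 32.6 FPKM, and all other neighbours were separate. After GK921 the order was JUN, FOSL1, MAFK, JUND, MAFF, JUNB, MAFG, FOSL2, FOS and FOSB. There JUND and MAFF overlapped, and the other neighbours did not.

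All 10 transcripts hold the pentamer ATTTA in the untranslated region after the stop codon, a mark of AU-rich elements that shorten the life of many immediate early RNAs. It occurs in 69.3% of tested genes with an annotated region, and 7 of the 10 members have at least 3 copies, as do 41.9% of tested genes. FOSL2 had 9 copies, MAFG 6, FOS and MAFK 5 each, and FOSL1 and JUND 1 each; both FOS, which fell, and MAFK, which rose, were among the genes with several copies. The region of FOSL2 (4864 bases) and MAFG (4335 bases) was also the longest. Of 6 genes for proteins that bind such elements, 2 rose and 3 fell, beside 46.8% higher and 29.2% lower among all tested genes. ZFP36, which speeds the decay of FOS-type RNAs, rose 1.40-fold from 47.3 ± 0.745 to 66.0 ± 4.72 FPKM and ZFP36L1 rose 1.29-fold. HNRNPD (AUF1) fell 1.68-fold from 401.6 ± 6.63 to 239.7 ± 8.13 FPKM and KHSRP fell 1.47-fold.

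Partner genes of the same protein class mostly rose. Of 12 genes whose proteins can join AP-1 or belong to the large MAF group, 7 were tested, 5 rose and none fell, beside the 46.8% of all tested genes called higher. ATF3, a stress-induced partner of JUN proteins, rose 17.8-fold to 458.7 ± 5.28 FPKM, a level above that of each of the 10 members. JDP2, a repressor that pairs with JUN proteins, rose 3.63-fold from 5.76 ± 1.16 to 20.9 ± 2.80 FPKM. ATF2, another JNK substrate, rose 1.71-fold, and BATF2 went from 0.733 ± 0.317 to 1.66 ± 0.737 FPKM (limma adjusted p = 0.0360). BATF2, counted among the 5 rises, was below 1 FPKM in DMSO and reached the limit for testing only through its GK921 values. The number of rises in this list was 4 with median-ratio scaling, quantile normalization or the replicate block. In these settings 4267, 4387 and 5351 of the 11573 tested genes were called higher. The large MAF genes MAF and MAFA were below the limit for testing. Of the 6 genes for NRF and BACH partners of the small MAF proteins, 5 were tested and all 5 rose, with a median log2 change of 0.86. NFE2L1, which controls proteasome genes, rose 2.95-fold from 84.9 ± 1.30 to 250.8 ± 1.62 FPKM. BACH1, a haem-binding repressor, rose 2.38-fold, NFE2L2, which encodes NRF2, rose 1.83-fold and NFE2L3 rose 1.75-fold. NFE2, the blood cell partner, was listed at 0 in every library.

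Upstream genes moved both ways. Of 25 MAP kinases and their activators and effectors, 10 rose and 9 fell, beside 46.8% higher and 29.2% lower among all tested genes. With median-ratio scaling 7 of the 25 rose and 13 fell, while 4267 of all tested genes were called higher and 4314 lower. MAP2K6, an activator of p38, rose 2.71-fold from 12.97 ± 2.52 to 35.2 ± 2.59 FPKM, RPS6KA5 (MSK1), a kinase of histone H3 and CREB, rose 3.04-fold from 1.76 ± 0.162 FPKM, and MAP2K5 rose 2.03-fold. MAPK12, a p38 kinase, fell 1.53-fold. Of 10 genes for transcription factors that act on the FOS and JUN promoters, 8 rose and none fell. Among all tested genes 46.8% were called higher and 29.2% lower by the same rule. Against a 1.2-fold change (treat), 5 of the list rose. By that stricter rule 3595 of the 11573 tested genes were called higher and 2135 lower. MEF2D rose 2.59-fold from 30.05 ± 1.77 to 77.8 ± 2.85 FPKM, MEF2A 1.80-fold, MEF2C 1.94-fold from a low level and CREB1 1.68-fold. This list had 1 fall with median-ratio scaling and 2 with quantile normalization. Of 7 genes that act in the turnover or repression of AP-1 proteins, 6 were tested, 2 rose and 2 fell. The number that fell was 4 with median-ratio or quantile scaling, 3 with upper-quartile scaling, 1 with the correction for GC content and length, and 0 against a 1.2-fold change (treat). The ubiquitin ligase genes ITCH and FBXW7, which target JUN proteins, rose 1.43-fold and 1.47-fold, and DDB1 and CUL4A, parts of another ligase, fell 1.27-fold and 1.11-fold.

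Textbook targets of AP-1 were split. Of 26 listed genes 20 were tested, 10 rose and 9 fell, beside 46.8% higher and 29.2% lower among all tested genes. The median of the tested targets was 0.13 on the log2 scale, next to 0.16 for all tested genes. IL6, counted among the rises, was at 0.34 FPKM in DMSO and 2.73 FPKM after GK921. It reached the limit for testing only through its GK921 values. DUSP1, a phosphatase that switches off JNK and p38, rose 7.17-fold from 9.61 ± 1.21 to 68.8 ± 1.93 FPKM. VEGFA, which drives vessel growth, rose 4.02-fold from 22.9 ± 2.52 to 92.2 ± 3.37 FPKM, and the metallothionein MT2A rose 3.46-fold. The matrix metalloproteinase MMP7 fell 22.4-fold from 305.8 ± 12.5 to 13.7 ± 0.574 FPKM. These genes also answer to many other factors.

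**Figure D4:**
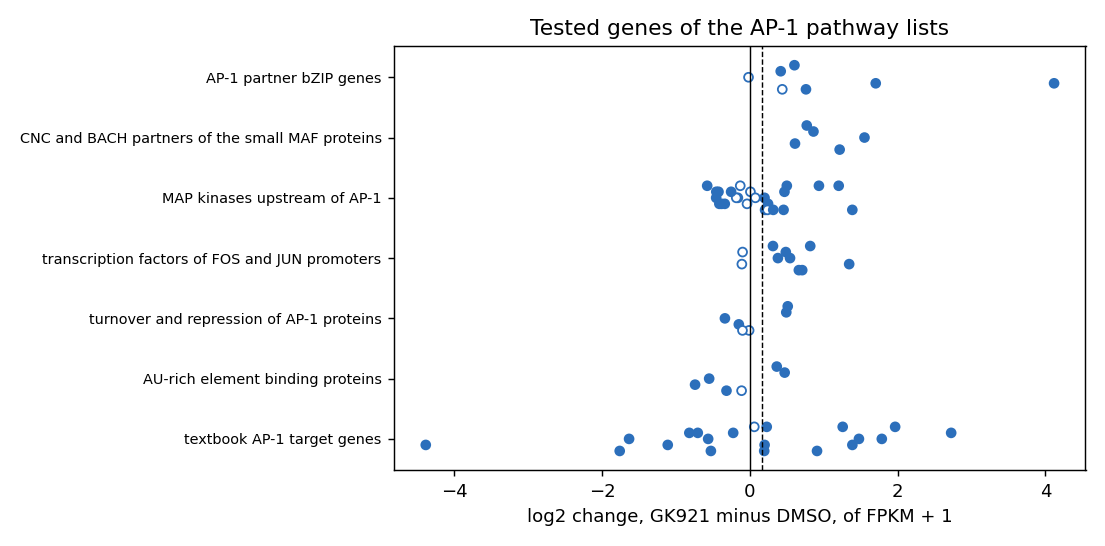
Log2 change of log2(FPKM + 1), GK921 minus DMSO, for each tested gene of 7 lists, with filled points for genes that passed the limma test. The dashed line is the median of all tested genes (0.16), and the lists of partners lie mostly to its right while the kinases and the targets lie on both sides.

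By the likeness of their values over the 6 libraries, the genes closest to MAFF, the member with the largest rise, included PARD6B and SAV1, at Pearson r = 0.99938 and 0.99915 on the log2(FPKM + 1) scale. Of the 9627 genes that averaged 5 FPKM or more, 2623 had an r above 0.95 with MAFF, and all points come from the same 2 groups of libraries. Those closest to FOS, the member with the largest fall, were CHORDC1, CDIP1 and PAXIP1, at r = 0.99108, 0.98808 and 0.98264, and 26 genes were above 0.95.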

How the data were processed

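RNA from 6 MHCC-97H libraries (3 DMSO, 3 GK921) was measured by sequencing. Total RNA was isolated with Trizol, per the labels' protocols. The build hg38 and the tools HISAT2, featureCounts, edgeR and FastQC (0.11.5) stand in the submitters' processing notes, with no role for any of them, and no source here names the gene annotation. FPKM values per gene symbol and library were deposited by the authors to 2 decimals, with the unit given by the file's own name. Since FPKM is scaled within a library, it cannot show whether cells held more or less RNA.

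Values were used as deposited. Genes averaging 1 FPKM or more across libraries were tested on log2(FPKM + 1) by limma (version 3.58.1, under R 4.3.3), with treatment alone in the model and a variance trend on intensity. Calls were made at a Benjamini-Hochberg adjusted p under 0.05. Printed folds are ratios of mean FPKM, and log2 changes refer to log2(FPKM + 1), which shrinks the changes of genes with low values. An exact permutation test of 3 against 3 cannot go below p = 0.1 and was not used. Fragments per library were estimated from the steps of low values of short single-exon genes, which assumes FPKM and the lengths of GENCODE 29 (GRCh38), the source also of positions, exons, GC content and pentamer counts. The fit and the depth estimate were tested on simulated data. The members and lists were chosen with earlier results of these data known. Beside the members, the text names the called genes of each list with the largest changes, at most 4, both directions included where both occurred. Some genes that this rule or the marker lists take are not reported here. Alternatives were the pseudocount, the expression limit, 3 scalings, the replicate block, no trend, array weights, treat, each library left out, and, added after seeing the data, a correction for GC content and length with and without the block.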

Additional observations from a re-analysis of the deposited data

How the results depend on the processing

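JUN, JUNB, JUND, MAFF and MAFK were called higher in each of 19 alternatives, with log2 changes of 0.55 to 0.74, 0.51 to 0.77, 1.196 to 1.42, 1.89 to 2.34 and 1.30 to 1.53. The number of members called higher was 5 to 7 with a library left out and 5 otherwise. FOSL1 was lower in all 19 (-0.39 to -0.19) and lost its call against a 1.2-fold change alone. The number called lower, 2 as reported, was 1 with a limit of 5 FPKM, which leaves FOS untested, 0 against a 1.2-fold change (treat), and 1 to 2 with a library left out. FOS was lower in the 18 alternatives in which it was tested, from -0.73 with quantile scaling or -0.72 with a pseudocount of 0.1 to -0.20 with a pseudocount of 5, around -0.48 as reported. Called genes overall numbered 8789, and 5730 with treat. The sign turned for 2 members that were not called: FOSL2 with median-ratio scaling (-0.036), and MAFG with median-ratio scaling (-0.089), quantile scaling (-0.018) and upper-quartile scaling (-0.018). The median change of all tested genes was 0.16 as deposited and 0.0070 with median-ratio scaling, and the share of calls that were rises 61.6%, 49.7% with median-ratio and 51.9% with quantile scaling. With the replicate block 5 members were higher, 2 lower and 8706 genes called. The deviations of same-numbered libraries correlated at 0.031, 0.047 and -0.0021, and not every library correlated best with its own number, so the numbers were not taken as pairs. After the correction for GC content and length, 5 members were higher and 2 lower, with and without the block. Against a 1.2-fold change, 6 of the MAP kinase list rose and 3 fell, and 3 of the partner list rose. Of the genes for AU-rich element binding proteins, 1 rose and 2 fell. At that setting 3595 of the 11573 tested genes were called higher and 2135 lower. With median-ratio scaling 7 of the AP-1 targets rose and 10 fell, while 4267 of all tested genes were called higher and 4314 lower. FOSB could be tested only without an expression limit (log2 change 0.080, limma adjusted p = 0.695). At this depth FOS and FOSB rest on few fragments, which limits what can be said of them.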
